A study of Mus musculus with 5 samples.

Results

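The unfolded protein response and the amino acid response were examined through 36 genes in mast cells that differ at a miR-9 allele. The genes were chosen by symbol in the authors' deposited table, and all 36 were found among its 25549 gene models. They form 2 arms. The ER arm holds 22 genes of the endoplasmic reticulum (ER), of which 14 encode chaperones and folding enzymes, 4 act in the disposal of misfolded proteins and 4 are stress sensors or their transcription factors. The ATF4 arm holds 14 genes linked to the transcription factor ATF4, of which 8 are stress factors and feedback regulators and 6 supply amino acids. The table lists p-values for 32 of the 36 genes, 22 of 22 in the ER arm and 10 of 14 in the ATF4 arm.

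Mast cells had been cultured from the bone marrow of C57BL/6 mice over 6 to 8 weeks, with recombinant interleukin-3 at 50 ng/mL, and received no further treatment named in the labels. Control cells (n = 2 samples) came from Cpa3-Cre mice, in which Cre is driven by the promoter of Cpa3, a carboxypeptidase gene of mast cells. The other cells (n = 3 samples) came from Cpa3-Cre;miR-9∆fl/∆fl mice, called the miR-9 line below, which carry Cpa3-Cre as well. Both groups therefore express Cre, and age and sex were matched per the design text. Some sex-linked RNAs nonetheless differed between the groups at an unadjusted p under 0.05, as given below. The labels do not say whether samples were separate mice, pooled mice or separate cultures. P-values thus reflect only how much these samples vary, and that variation may be technical.

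Secreted and membrane proteins fold in the ER with the help of chaperones, disulfide isomerases and lectins. When unfolded proteins build up, the sensors ATF6, IRE1 (gene Ern1) and PERK (gene Eif2ak3) are known to raise chaperone and disposal genes, in part through the factor XBP1, and PERK slows translation by phosphorylating eIF2. Phosphorylated eIF2, which amino acid shortage also brings about through another kinase, favours translation of ATF4, and ATF4 turns on genes of amino acid synthesis and uptake. Mast cells make large amounts of secretory protein for their granules. These sensors act largely through splicing, cleavage and phosphorylation, which values per gene do not measure.

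All fold changes are log2 values of the miR-9 line over the control from the authors' deposited table, so a positive value is higher in the miR-9 line. Values per library were not used, because the names of those columns match no sample's labels. The level in each sample, its error, the depth behind each gene and the overlap of the groups are thus not analysed here. In bulk RNA, more cells with a transcript and more RNA per cell cannot be told apart.

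Promoter sequences of these genes are shown first, because the known binding elements of the ER stress factors and of ATF4 were searched in them. RefSeq promoters (GRCm38.p6, 250 bases before to 50 bases after the start site) were matched by symbol for 32 of the 36 genes, all but Manf, Hyou1, Atf6 and Slc7a5. The ER stress response element (ERSE), which ATF6 and XBP1 are known to bind together with the factor NF-Y, consists of CCAAT, 9 bases of any kind and CCACG. Searched on both strands, this exact element was present in the promoters of 8 members, Hspa5, Hsp90b1, Calr, Canx, Pdia6, Dnajc3, Creld2 and Syvn1. All 8 belong to the ER arm, where 19 genes had a promoter, and none of the 13 promoters of the ATF4 arm held it. Among the 27025 genes with a RefSeq promoter, 37 genes (0.137 percent) held the element. The 9 sites are printed because they carry this shared feature, read from CCAAT to CCACG, with the fixed bases in capitals and the free bases in lower case.

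Hspa5, chr2:34772025-34772043: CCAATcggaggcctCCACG
Hsp90b1, chr10:86705638-86705656: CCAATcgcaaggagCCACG
Hsp90b1, chr10:86705533-86705551: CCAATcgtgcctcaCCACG
Calr, chr8:84847075-84847093: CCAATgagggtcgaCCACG
Canx, chr11:50325800-50325818: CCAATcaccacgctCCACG
Pdia6, chr12:17266491-17266509: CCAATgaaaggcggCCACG
Dnajc3, chr14:118937827-118937845: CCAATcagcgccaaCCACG
Creld2, chr15:88819520-88819538: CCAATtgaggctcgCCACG
Syvn1, chr19:6046532-6046550: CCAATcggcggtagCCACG

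The sites began between 44 bases (Syvn1) and 212 bases (Hsp90b1) before the start site, and Hsp90b1 alone had a pair of them, 1 on each strand. The site in Hspa5, the gene of the main ER chaperone BiP, began 65 bases before the start site, as this stretch of 110 bases directly upstream shows (chr2:34771980-34772089, plus strand, element in capitals).

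Hspa5: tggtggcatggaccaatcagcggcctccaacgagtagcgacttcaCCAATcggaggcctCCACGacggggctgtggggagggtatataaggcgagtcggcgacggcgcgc

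Sdf2l1, the member with the highest fold change, had no full element in its window. It held the core CCACG at 3 places on the strand opposite to the gene, shown in capitals as the complement CGTGG in the stretch directly upstream of its start site (chr16:17132384-17132608, minus strand, the strand of the gene). This core alone is common. It was present in 25 of the 32 member promoters and in 35.5 percent of all genes with a promoter, counts that include the full elements.

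Sdf2l1: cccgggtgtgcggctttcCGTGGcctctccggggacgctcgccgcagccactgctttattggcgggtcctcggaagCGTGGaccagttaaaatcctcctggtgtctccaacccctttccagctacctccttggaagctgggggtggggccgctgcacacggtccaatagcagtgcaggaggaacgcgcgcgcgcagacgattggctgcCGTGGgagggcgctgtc

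The element through which ATF4 and C/EBP factors act (CARE, searched on both strands as TGATG, any base, then AA) was found mostly in the other arm. It was present in 5 of 13 promoters of the ATF4 arm (Atf3, Trib3, Chac1, Asns and Slc7a11) and in 1 of 19 of the ER arm (Herpud1), against 4.51 percent of all genes with a promoter. Asns and Slc7a11 are shown because they are amino acid supply genes with the element, which is in capitals except for its free base. In Asns the element began 23 bases and in Slc7a11, with 1 on each strand, 66 and 47 bases before the start site (chr6:7693210-7693319 and chr3:50443614-50443723, minus strand). Herpud1 held both kinds of element, a CARE 112 bases and an ERSE-II (ATTGG, any base, then CCACG, a second form of the ER stress element) 52 bases before the start site (chr8:94386299-94386428, plus strand). ERSE-II was also present in Dnajb11, 7 bases after the start site, and in 0.0444 percent of all genes with a promoter.

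Asns: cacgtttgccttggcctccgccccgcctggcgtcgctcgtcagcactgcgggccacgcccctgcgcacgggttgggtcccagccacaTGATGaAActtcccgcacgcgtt
Slc7a11: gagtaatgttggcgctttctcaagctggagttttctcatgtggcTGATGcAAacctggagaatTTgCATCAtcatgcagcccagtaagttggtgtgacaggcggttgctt
Herpud1: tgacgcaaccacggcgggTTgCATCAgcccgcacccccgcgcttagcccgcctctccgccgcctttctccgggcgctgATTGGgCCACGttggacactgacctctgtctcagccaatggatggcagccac

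**Figure D1:**
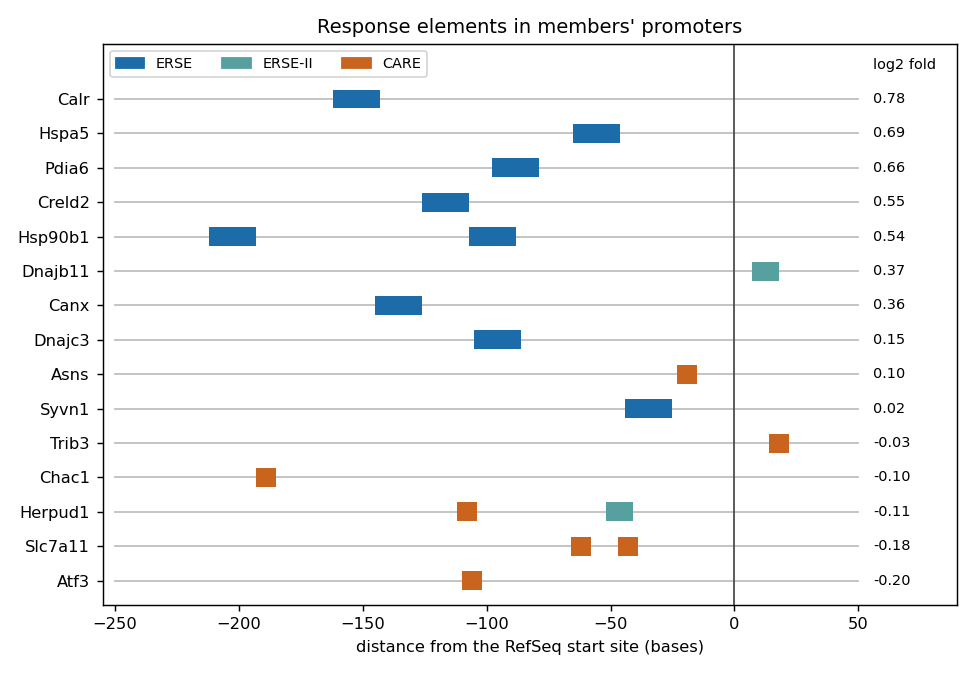
Positions of the exact ERSE, ERSE-II and CARE matches relative to the RefSeq start site in bases, for the 15 members with a match, ordered by log2 fold change (printed at the right, from the authors' deposited table). The 8 genes with an ERSE have values from 0.02 to 0.78, and the 6 with a CARE from -0.20 to 0.10.

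A match of letters is a description of the promoter and no measurement of binding. In the authors' deposited table the 8 members with an ERSE all had positive log2 fold changes, from 0.02 in Syvn1 to 0.78 in Calr, with a median of 0.54. The 11 other ER arm members with a promoter had a median of 0.06 in the authors' deposited table, and 7 of them were positive. Role differed between these sets too. All members with an ERSE but Syvn1 were folding genes. Those without it included the disposal and sensor genes Herpud1, Edem1, Sel1l, Xbp1, Ern1 and Eif2ak3. Folding genes without it ran from -0.35 (Dnajb9) to 0.91 (Sdf2l1) in the authors' deposited table. Element and role were thus not separated. Beyond the members, genes with the element had mostly negative values, and levels were not used to filter these genes. Of 15 further genes with an ERSE and a p-value, 2 were positive in the authors' deposited table and the median was -0.56. The 2 positive genes were Hnrnpa3 at 0.45 (p = 0.0356) and Alg12, a glycosylation gene, at 0.15 in the authors' deposited table. The others include Derl3, an ER disposal gene, at -0.09, and Tdrd9, a germ cell gene, at -1.17 in the authors' deposited table. The difference between members and other genes with the element was not tested.

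No member of either arm passed the test over all genes. At a Benjamini-Hochberg adjusted p under 0.05, computed from the authors' deposited p-values over 24071 rows, 0 of 22 ER arm genes and 0 of 10 ATF4 arm genes with a p-value were called, where 0.411 percent of all rows were. At an unadjusted p under 0.05 in the authors' deposited table, 9 ER arm genes were higher and 0 lower, and in the ATF4 arm 1 was higher and 1 lower. Over all rows 7.92 percent had such a p in either direction, 3.87 percent on the higher side and 4.05 percent on the lower. All 9 of the ER arm genes were folding genes, 9 of 14. The background rows include scarce gene models, since levels were not used to filter them.

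**Figure D2:**
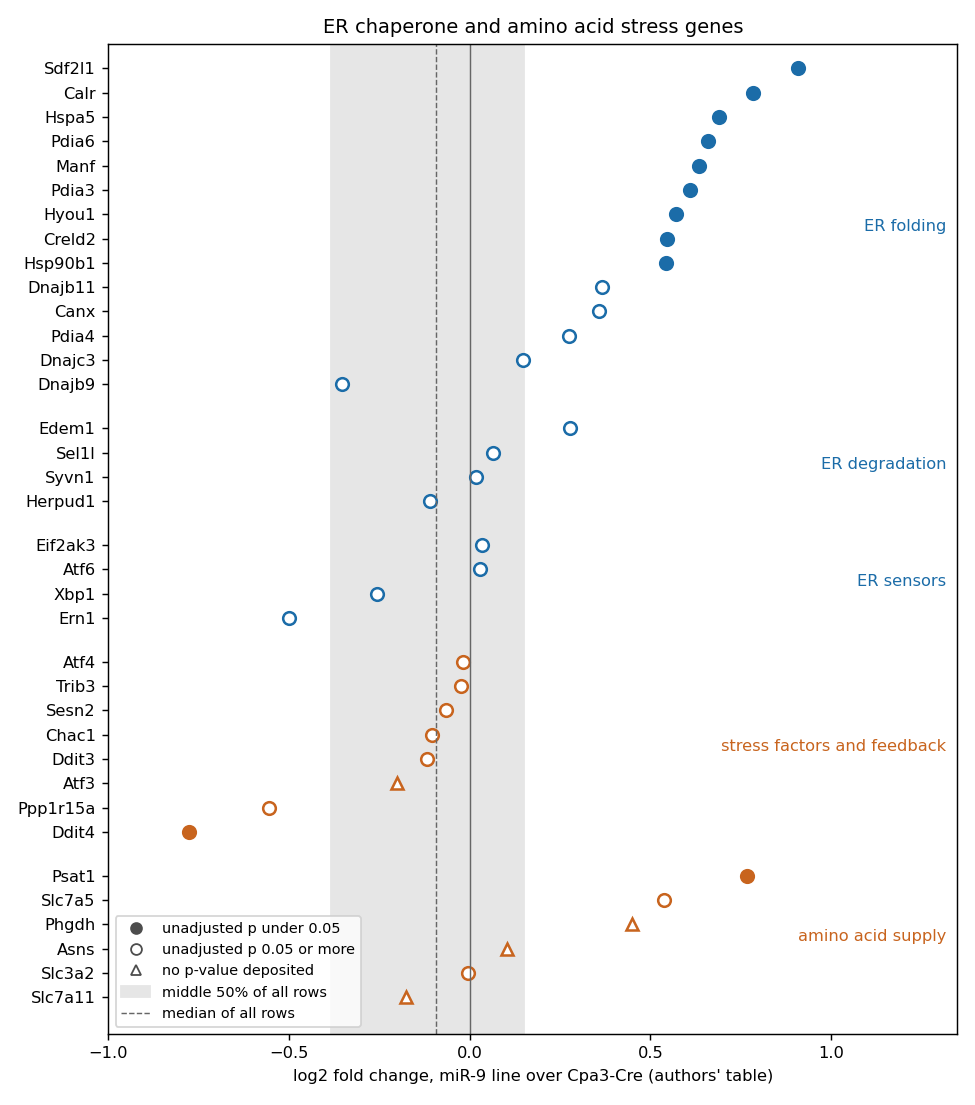
Log2 fold change of each of the 36 genes (miR-9 line over Cpa3-Cre, authors' deposited table) by role, with filled circles for an unadjusted p under 0.05, open circles for larger p and triangles where the p-value is empty; the grey band is the middle 50 percent of all rows and the dashed line their median of -0.09. The 9 filled ER folding genes lie between 0.54 and 0.91, while the ER sensors lie at or below 0.04.

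Chaperones and folding enzymes had the highest values. In the authors' deposited table, 13 of the 14 folding genes were positive and their median was 0.56, against a median of -0.09 and 40.2 percent positive over all rows with a p-value. Manf, Sdf2l1 and Hyou1 came closest to the threshold, and each passed at an adjusted p under 0.10, as did 0.968 percent of all rows. Markers of proliferation were also higher in the miR-9 line, 12 of 12 being positive in the authors' deposited table (0.24 to 1.56, median 1.39), and their part in the folding gene values was not tested.

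Manf encodes a small protein of the ER that is also secreted and is induced by ER stress. It stood at 0.63 (1.55-fold) with p = 0.00025 in the authors' deposited table and a Benjamini-Hochberg adjusted p of 0.0560, rank 106 of all rows by p. The deposited Manf model runs from 106838312 to 106891979 on chromosome 9 (GRCm38, minus strand), and 146 bases of its exons (4.14 percent) lie on exons of Vprbp on the opposite strand. Vprbp itself stood at 0.17 in the authors' deposited table. The libraries keep the strand, but the sources used here do not state if reads were counted by it.

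Sdf2l1 encodes a partner of BiP and its J-domain cochaperones. At 0.91, or 1.88-fold, it had the highest value of all 36 genes in the authors' deposited table, and 1.77 percent of all rows stood higher. Its p-value in the authors' deposited table was 0.000284 and its Benjamini-Hochberg adjusted p 0.0601. It is a short gene of 3 exons and 1108 exon bases on chromosome 16 (17130138 to 17132383, minus strand), with no exon shared with another row.

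Hyou1, the gene of a large chaperone that exchanges nucleotide on BiP, stood at 0.57 (1.49-fold) with p = 0.000549 in the authors' deposited table and a Benjamini-Hochberg adjusted p of 0.0791. It lies on chromosome 9 from 44379490 to 44392369 (plus strand) and shares no exon base with another row.

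The genes of BiP, of the ER form of HSP90 and of the calreticulin cycle ranged from 0.36 to 0.78 in the authors' deposited table. Hspa5 stood at 0.69 (1.61-fold, p = 0.0313) in the authors' deposited table, and Hsp90b1, the ER member of the HSP90 family, at 0.54 (p = 0.0337). The calreticulin cycle retains glycoproteins until they are folded. Its soluble lectin gene Calr stood at 0.78 (1.72-fold, p = 0.00442) and Pdia3, the disulfide isomerase that works with it, at 0.61 (p = 0.0245) in the authors' deposited table. Canx, the membrane-bound lectin of the same cycle, stood lower at 0.36 (p = 0.156) in the authors' deposited table. Their Benjamini-Hochberg adjusted p-values ranged from 0.220 for Calr to 0.789 for Canx.

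The disulfide isomerase genes Pdia6 and Pdia4 differed in size. Pdia6 stood at 0.66 (p = 0.00762) and Pdia4 at 0.28 (p = 0.512) in the authors' deposited table, and the difference between them was not tested. Creld2, an ER stress-induced gene of a calcium-binding ER protein, stood at 0.55 (p = 0.0167) in the authors' deposited table. J-domain cochaperones of BiP were lower in this order. Dnajb11 stood at 0.37 (p = 0.131), Dnajc3 at 0.15 and Dnajb9 at -0.35 (p = 0.425) in the authors' deposited table. Dnajb9, a cochaperone known to hold IRE1 inactive, was the single folding gene with a negative value.

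Exon sharing touched 5 folding genes. Besides Manf, 415 bases (10.3 percent) of Hsp90b1 lay on exons of 1810014B01Rik on the opposite strand, and Pdia3, Pdia4 and Pdia6 shared 18, 14 and 50 bases with other rows. Without the 5, a count chosen after the values were seen, 5 of 9 folding genes had an unadjusted p under 0.05 and a positive value in the authors' deposited table.

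**Figure D3:**
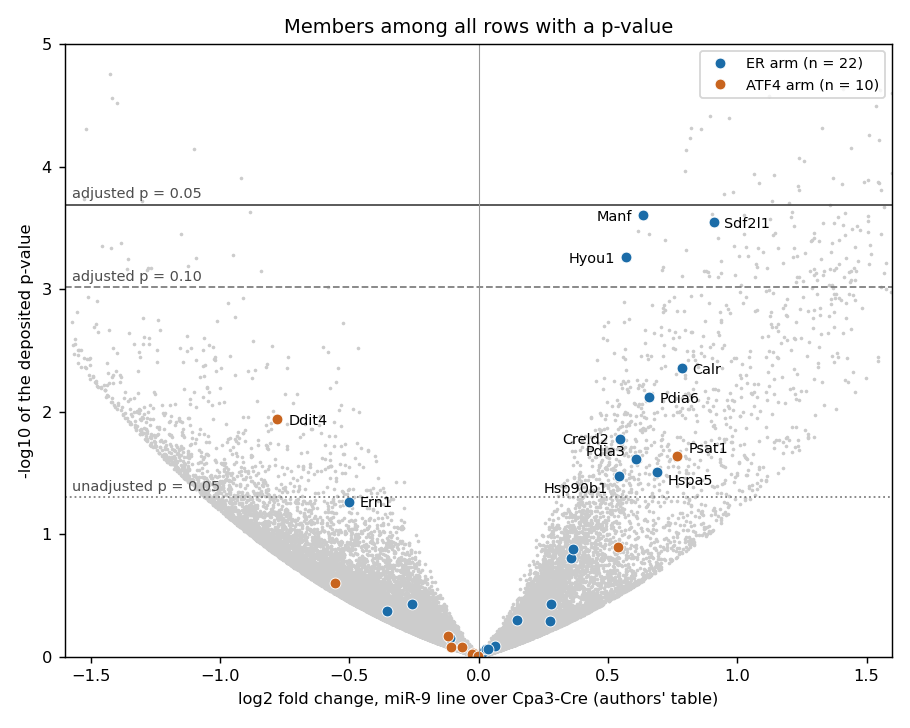
Deposited log2 fold change (horizontal) against -log10 of the deposited p-value (vertical) for all rows in grey and for the 22 ER arm and 10 ATF4 arm genes with a p-value in colour; 88 rows lie outside the range drawn. Manf, Sdf2l1 and Hyou1 fall between the lines of an adjusted p of 0.05 and 0.10, and no coloured point lies above the upper line.

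Disposal genes and sensors stood lower than most folding genes, from -0.50 to 0.28 in the authors' deposited table. Edem1, which hands misfolded glycoproteins to disposal, stood at 0.28 (p = 0.372) in the authors' deposited table. Sel1l and Syvn1, adaptor and ubiquitin ligase of the same membrane complex, stood at 0.06 and 0.02, and Herpud1, which helps to assemble it, at -0.11 in the authors' deposited table. Syvn1 shares 83 exon bases with Mrpl49 on the opposite strand. The p-values of these 4 genes in the authors' deposited table were all at or above 0.372.

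Of the sensors, Ern1 was lowest at -0.50 (p = 0.0546, Benjamini-Hochberg adjusted p = 0.644) in the authors' deposited table. Its substrate Xbp1 stood at -0.26 (p = 0.370), while Atf6 stood at 0.03 and Eif2ak3 at 0.04 in the authors' deposited table. The 8 disposal and sensor genes together had a median of 0.02, with 5 positive, none at an unadjusted p under 0.05, and a range from -0.50 to 0.28 in the authors' deposited table. Since Xbp1 acts through a spliced form, this gene-level value does not show how much of its mRNA was spliced.

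The stress factors of the ATF4 arm had no positive value. Atf4 stood at -0.02 (p = 0.939) and Ddit3, the gene of the pro-apoptotic factor CHOP, at -0.12 (p = 0.680) in the authors' deposited table. Ddit3 shares 68 exon bases with Mars on the opposite strand. Atf3, another factor of the response, was listed at -0.20 with its p-value empty in the authors' deposited table. The feedback genes Trib3, a pseudokinase that restrains ATF4, and Chac1, which degrades glutathione, stood at -0.03 and -0.10 in the authors' deposited table. Sesn2, which inhibits the growth kinase complex mTORC1 when leucine is low, stood at -0.06 in the authors' deposited table.

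Ppp1r15a and Ddit4 stood lowest in this group. Ppp1r15a, whose product directs the phosphatase that removes phosphate from eIF2, stood at -0.56 (p = 0.251) in the authors' deposited table. Ddit4, an inhibitor of mTORC1 that hypoxia and glucocorticoids also induce, stood at -0.78, or 1.71-fold lower, with p = 0.0116 in the authors' deposited table and a Benjamini-Hochberg adjusted p of 0.364. It was the lowest of the 36 genes, with 7.04 percent of all rows below it. The other 6 stress factors with a p-value had p-values of 0.251 or more in the authors' deposited table.

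Amino acid supply genes were spread more widely. Psat1, for the transaminase of serine synthesis, stood at 0.77 (1.70-fold, p = 0.0232) in the authors' deposited table with a Benjamini-Hochberg adjusted p of 0.486, the highest value of the ATF4 arm. Phgdh, for the first enzyme of the same route, was listed at 0.45 with its p-value empty in the authors' deposited table. Asns, the asparagine synthetase gene and a classical ATF4 target, was listed at 0.10, again with its p-value empty in the authors' deposited table.

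Transporter genes differed from each other. Slc7a5, the light chain of the large neutral amino acid exchanger, stood at 0.54 (p = 0.127), while its heavy chain Slc3a2 stood at 0.00 (p = 0.989) in the authors' deposited table. Slc7a11, the cystine transporter that pairs with the same heavy chain, was listed at -0.18 with its p-value empty in the authors' deposited table. A p-value was thus empty for 4 of 14 ATF4 arm genes (Atf3, Asns, Phgdh and Slc7a11), for 0 of 22 ER arm genes and for 5.79 percent of all rows in the authors' deposited table. The sources used here do not state why these p-values are empty, and the 4 genes enter no count of calls.

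Set side by side, the ER arm had a median of 0.32 with 18 of 22 positive in the authors' deposited table. The ATF4 arm had a median of -0.05 with 2 of 10 positive in the authors' deposited table, a difference of medians of 0.36. Over all rows with a p-value, 40.2 percent were positive. Of the ATF4 arm genes with an empty p-value, Asns and Phgdh were positive and Atf3 and Slc7a11 negative. All values come from the same samples, and the difference between arms was not tested. It depended on the roles compared. Between the folding genes and the 3 amino acid supply genes with a p-value, the medians in the authors' deposited table were 0.56 and 0.54, a difference of 0.021. With Phgdh, Asns and Slc7a11, whose p-values are empty, the supply median in the authors' deposited table was 0.28 and the difference 0.28, a comparison added after the values were seen. In the authors' deposited table the medians of the sensors (-0.11) and of the stress factors (-0.10) were likewise close. After centring on the median of all rows, the ATF4 arm's median turned positive, at 0.047.

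**Figure D4:**
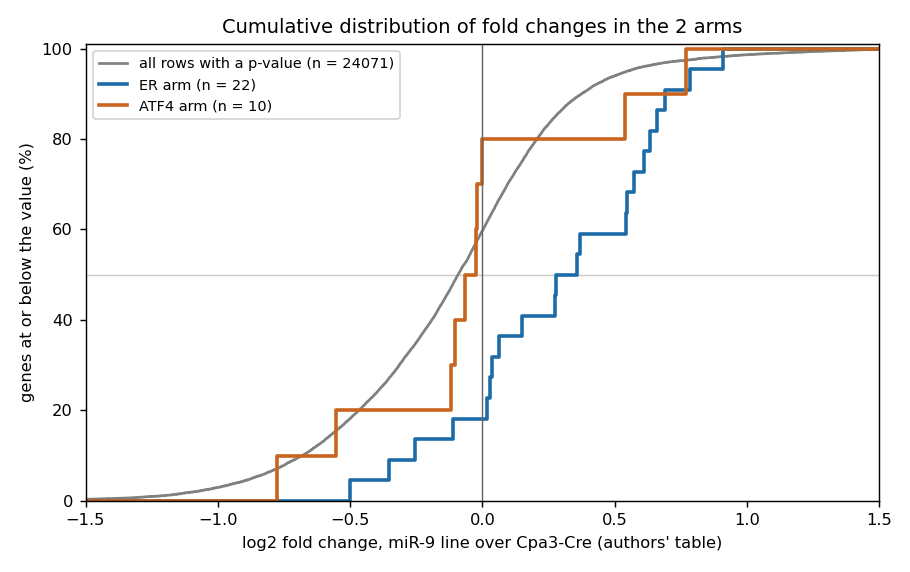
Share of genes (percent) at or below each log2 fold change (miR-9 line over Cpa3-Cre, authors' deposited table) for the ER arm, the ATF4 arm and all rows with a p-value. The ER arm crosses 50 percent near 0.32 and all rows at -0.09, while 8 of the 10 ATF4 arm genes lie below 0.

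Other genes of the ER pathway were read from lists of similar scope. Of 75 matched genes, 0 were called in either direction at an adjusted p under 0.05, and 57 were positive in the authors' deposited table (median 0.21). In the authors' deposited table, an unadjusted p under 0.05 was found for 7 higher and 1 lower, 10.7 percent against 7.92 percent of all rows. Positive values made up 76.0 percent, against 40.2 percent of all rows with a p-value. Genes of ER entry, signal peptide removal, glycosylation and ER exit were the most often positive of these lists. Of them, 22 of 24 were positive, with a median of 0.36 in the authors' deposited table. Lman1, a cargo receptor for ER exit, stood at 0.71 (p = 0.00153) and Ostc, a subunit of the oligosaccharyltransferase, at 0.65 (p = 0.0603) in the authors' deposited table. Sec62 (-0.14) and Sec11a (-0.01) were the negative members of that list in the authors' deposited table.

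Further folding genes had a median of 0.09 in the authors' deposited table, with 16 of 23 positive. Prdx4, a peroxidase of the ER, stood at 0.62 (p = 0.00647) and Erp29, an ER chaperone gene, at 0.51 (p = 0.0685), while Fkbp14 stood at -0.38 and Cnpy3 at -0.23 in the authors' deposited table. Further disposal genes had a median of 0.10 with 13 of 18 positive, from Vcp, the segregase gene (0.49, p = 0.0107), and Nploc4, its cofactor (0.38), down to Ube2j1 (-0.17) and Ufd1l (-0.11) in the authors' deposited table. Among 10 further sensing genes, Creb3l1, a membrane-bound factor related to ATF6, stood at 0.97 (p = 0.00927) and Creb3l2 at 0.44 in the authors' deposited table. Bhlha15, a factor of secretory cells and known XBP1 target, stood at -0.67 (p = 0.0431) and Ern2, a relative of Ern1, at -0.31 in the authors' deposited table.

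Other ATF4-linked genes were read in the same way. Of 31 with a p-value, 0 were called at an adjusted p under 0.05, and 15 were positive in the authors' deposited table (median -0.02). Positive values made up 48.4 percent, against 40.2 percent of all rows with a p-value. An unadjusted p under 0.05 in the authors' deposited table was found for 5 higher and 2 lower, 22.6 percent against 7.92 percent of all rows. Enzymes of amino acid and one-carbon metabolism had a median of 0.19 with 9 of 13 positive in the authors' deposited table. Mthfd1l stood highest at 0.94 (p = 0.000587, Benjamini-Hochberg adjusted p = 0.0816) and Mthfd1 at 0.69 (p = 0.00557) in the authors' deposited table, both for folate enzymes that DNA synthesis also uses. Among those with a p-value Cbs (-0.82) and Aldh1l2 (-0.31) were lowest in the authors' deposited table, and Bcat1, for a branched-chain aminotransferase, was listed lower at -1.02 with its p-value empty. Psph, which completes serine synthesis after Psat1, stood at 0.19 in the authors' deposited table.

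Transport genes had a median of -0.05, with Slc1a5 (0.54) and Slc38a1 (0.54, p = 0.0201) highest and Slc43a1 (-0.33) and Slc38a2 (-0.13) lowest in the authors' deposited table. Other stress genes that ATF4 is known to induce or to act with had a median of -0.31 with 3 of 10 positive in the authors' deposited table. Klhl24 stood at -0.74 (p = 0.0287) and Nupr1, a stress-induced cofactor, at -0.65 (p = 0.0282), while Eif4ebp1 (0.35) and Xpot (0.12) were highest in the authors' deposited table. Genes that control eIF2 had a median of 0.12 in the authors' deposited table, with 10 of 14 positive. Eif2s3x, a subunit gene of eIF2 itself, stood at 0.54 (p = 0.0107) and Eif2b1 at 0.28, while Impact (-0.34) and Eif2ak1 (-0.06) were lowest in the authors' deposited table. Eif2s3x is X-linked, as is Prdx4 of the further folding genes, and some sex-linked RNAs had an unadjusted p under 0.05. Xist, expressed in female cells, stood at 1.58 (p = 0.000994, Benjamini-Hochberg adjusted p = 0.101) and the Y-linked Usp9y at -1.002 (p = 0.0399) in the authors' deposited table. Srsy, also Y-linked, stood at -2.15 (p = 6.57e-05) in the authors' deposited table, with a Benjamini-Hochberg adjusted p of 0.0259. Its X-linked counterpart Srsx was lower as well, at -1.46 (p = 0.00639) in the authors' deposited table. These values stand beside a design text that calls sex matched. The Y-linked genes Uty (-0.65), Kdm5d (-0.55), Ddx3y (-0.36) and Eif2s3y (-0.20) were negative with larger p-values in the authors' deposited table, and the part of sex in the members' values was not tested.

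**Figure D5:**
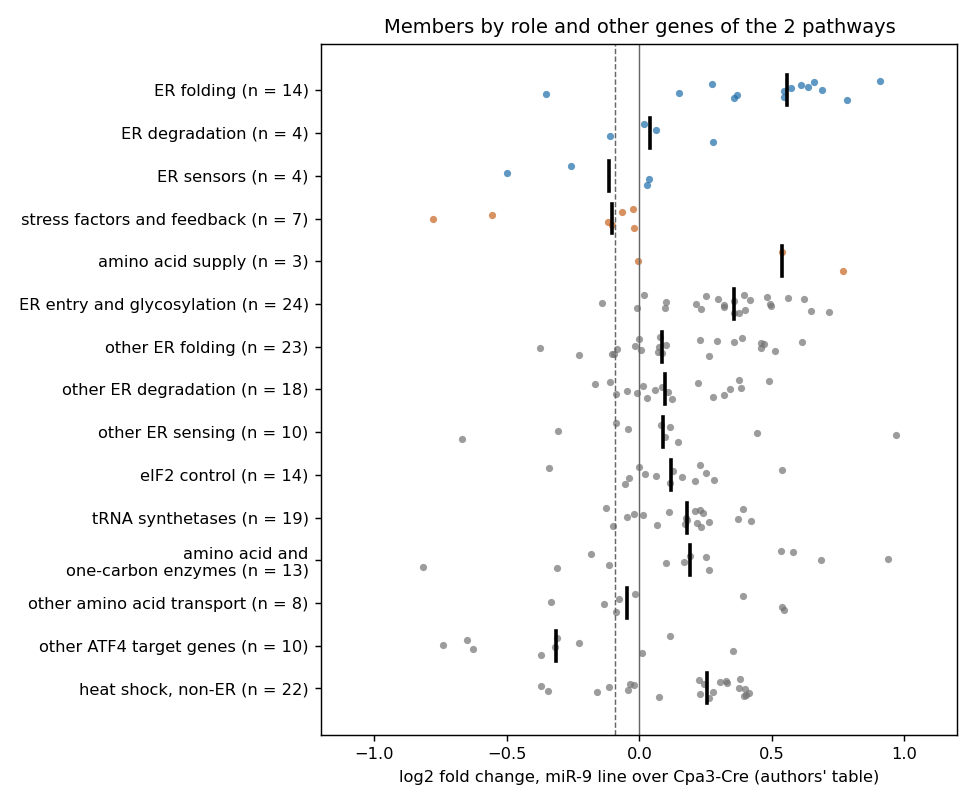
Log2 fold changes (miR-9 line over Cpa3-Cre, authors' deposited table) of the members by role, in colour, and of other genes of both pathways, in grey; each point is a gene with a p-value, black bars are medians and the dashed line is the median of all rows. Among genes with a p-value, medians are highest for ER folding (0.56), amino acid supply (0.54) and ER entry and glycosylation (0.36, ER exit genes included). The amino acid supply median comes from 3 genes, and is 0.28 with the 3 whose p-value is empty. The lowest median is that of other ATF4 target genes (-0.31).

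The cells and the genotype were checked in the same table. All 15 mast cell markers had a p-value and 1, Tpsb2, was called, with 12 positive and a median of 0.10 in the authors' deposited table. Plasma and B cell markers matter here because plasma cells are rich in ER chaperones. Of 13 listed, 7 had a p-value, with 1 positive, Ighm (0.34), and a median of -0.53 in the authors' deposited table. Ms4a1, Igkc, Jchain and Mzb1 were not found by symbol, and Irf4 and Tnfrsf17 had an empty p-value. Plasma cells were thus only partly covered. Most listed markers of T and NK cells and of stromal cells also stood below 0 there. T and NK cell markers had 0 positive among 6 (median -0.55) and stromal markers 1 among 6 (median -0.38) in the authors' deposited table. The macrophage marker Apoe stood at -1.31 (p = 0.00326) in the authors' deposited table, while Cx3cr1 of the same list stood at 0.77 (p = 0.0970). Basophil markers had 1 positive among 3 with a p-value (median -0.35), and a median of 0.13 over all 5 in the authors' deposited table. Of the eosinophil markers only Ccr3 had a p-value, at -0.35, and 10 of 11 neutrophil markers had an empty p-value. The part of such cells in the members' values was not tested. Whether defining markers of these cells were at 0 was not analysed here. Gm25641, a gene model over a miR-9 hairpin, stood at 4.50 in the authors' deposited table (Benjamini-Hochberg adjusted p = 8.74e-18), and the direction in which the allele shifts miR-9 is not given by the labels.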

How the data were processed

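Paired 50-base reads of ribosome-depleted, strand-marked total RNA were collected, per the labels' protocols. The tools in the submitters' processing notes are STAR, Cuffdiff, HTSeq, DESeq and DESeq2, the builds mm10 and GRCm38, and the design text names DESeq2 for the statistics; the sources used here state no versions, filters or shrinkage of fold changes. Each gene's row holds, as deposited by the authors, its log2 fold change, that fold again as a signed linear score, and its p-value, empty in 1478 of 25549 rows. The 5 columns of values per library match no sample's labels and were not used, so no test of expression, error or filter on levels was made here.

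Benjamini-Hochberg adjustment covered all 24071 deposited p-values (statsmodels 0.14.6, Python 3.11.15); a gene was called at an adjusted p below 0.05. Medians and sign counts use rows with a p-value. Members and lists were chosen with earlier results of these data known, so lists carry no test. Members with an unadjusted p under 0.05 and the extremes of each role were named with p-values; of each further list, the 2 highest and 2 lowest. Promoters come from RefSeq (GRCm38.p6), 3' UTRs from GENCODE M21; ERSE-II and the miR-9 matches were added after the values were seen. The adjustment, the summaries and the motif search were tested on simulated data.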

Additional observations from a re-analysis of the deposited data

How the results depend on the processing

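The count of 0 called ER arm genes held with Benjamini-Yekutieli adjustment, with rows of at least 200 exon bases only (smallest adjusted p 0.0535) and at the design text's unadjusted p under 0.0001, and became 3 (Manf, Sdf2l1 and Hyou1) at an adjusted p under 0.10. The count of 0 in the ATF4 arm held under all 4 settings, with 1 gene higher and 1 lower at an unadjusted p under 0.05. Centring on the median of all rows (-0.09) moved the ER arm's median from 0.32 to 0.41 and reversed that of the ATF4 arm from -0.05 to 0.047. It also reversed Atf4 (0.073), Trib3 (0.067), Sesn2 (0.027) and Slc3a2 (0.089), while 32 members kept their sign. The difference between arms moved from 0.36 to 0.021 between folding and supply genes with a p-value, and to 0.28 with all 6 supply genes, a setting chosen after seeing the data. Between whole arms it stayed at 0.36 with members lacking a p-value included. Without genes whose exons overlap another row, a setting chosen after seeing the data, the folding genes higher at an unadjusted p under 0.05 went from 9 of 14 to 5 of 9; fewer genes were counted. No paired analysis was possible because the columns of values per library carry no sample labels. Those columns were used in no step, so other pseudocounts or normalizations, filters on low values and fits that leave out a replicate were not run. Depth per gene is unknown, so a p-value above the threshold does not show that a gene was unchanged.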

Other observations

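Heat shock genes and tRNA synthetases stood slightly above 0. They were counted in neither arm nor among the other ATF4-linked genes, so the ATF4 medians given above leave the tRNA synthetases out. Whether ATF4 acts on the tRNA synthetase genes in these cells was not tested. In the authors' deposited table, 15 of 22 heat shock and chaperonin genes from outside the ER (all cytosolic or nuclear but the mitochondrial Hspd1 and Hspe1) were positive, their median was 0.25, and none had an unadjusted p under 0.05. The constitutive chaperonin subunit genes Cct5 (0.41) and Cct3 (0.40) were highest, and the heat-inducible genes Hspa1b (-0.37) and Dnajb1 (-0.34) lowest in the authors' deposited table. Of 19 cytosolic tRNA synthetase genes, 15 were positive with a median of 0.18 in the authors' deposited table, from Hars (0.42) and Wars (0.39) to Cars (-0.10) and Yars (-0.13), again with none at an unadjusted p under 0.05.

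Because the genotypes differ at miR-9, the longest annotated 3' UTR of each member was read for matches to the seeds of both miR-9 arms. The mature RNAs are printed with bases 2 to 8, the seed, in capitals.

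mmu-miR-9-5p: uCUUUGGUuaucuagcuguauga
mmu-miR-9-3p: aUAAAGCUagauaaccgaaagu

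The miR-9-5p seed match ACCAAAG was present in 6 of 36 members (16.7 percent), and in 5 of the 32 members with a p-value (15.6 percent), against 13.1 percent of 15609 genes with a UTR and a p-value. The 6 were Dnajc3, Edem1, Sel1l, Ern1, Trib3 and Slc7a11, and their log2 fold changes in the authors' deposited table ran from -0.50 in Ern1 to 0.28 in Edem1. The miR-9-3p seed match AGCTTTA was likewise present in 6 members, 5 of the 32 with a p-value, against 11.7 percent of those genes. These were Hspa5, Dnajb9, Herpud1, Atf6, Ern1 and Slc7a11. Ern1 and Slc7a11 held both. Sites of Ern1, the lowest ER arm gene, and of Hspa5 are shown with 8 bases on either side, the match in capitals.

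Ern1, miR-9-5p: cattaggtACCAAAGcacttgca
Ern1, miR-9-3p: gcatcttcAGCTTTAgcatggaa
Hspa5, miR-9-3p: atttatttAGCTTTAtaacaatg

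Hspa5 stood at 0.69 and Ern1 at -0.50 in the authors' deposited table, so members with a match had values of either sign. Shares near those of all genes give no sign that the members are set apart by these matches, and UTR length was not taken into account.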
